A study of Mus musculus with 10 samples.

Results

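The exon and intron reads of 9112 genes were compared between the offspring of fathers fed a low-protein diet (LPD) and the offspring of fathers fed a control diet (CD). These genes were the nuclear protein-coding genes with more than 1 exon that had at least 20 exon reads and at least 20 intron reads in each of the 6 offspring libraries, and they were chosen from 20447 nuclear protein-coding genes with more than 1 exon and from 51826 genes listed in all. The offspring were male C57BL/6 mice of 5 weeks of age whose fathers had received CD or LPD after weaning, while the mothers and the offspring themselves received CD. Inguinal white adipose tissue (iWAT), the subcutaneous fat pad of the groin, was taken from 3 offspring of CD fathers and 3 offspring of LPD fathers (pLPD offspring), each with a different mother within its group, and 1 library was made per mouse from RNA depleted of ribosomal RNA. The mice are called CD mice and pLPD mice after the diet of the father.

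Exon reads in such a library come mostly from spliced mRNA, of which a cell holds the amount that synthesis and degradation leave. Intron reads come from RNA that still carries its introns, largely pre-mRNA that is waiting to be spliced, and so they follow recent transcription more closely than exon reads do. White fat cells make fatty acids from glucose and store them as triglyceride, and the enzymes of this lipogenesis are controlled at transcription, by insulin and by carbohydrate, as well as afterwards.

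The 9112 genes held between 5204910 and 7561330 exon reads and between 3909864 and 5217197 intron reads per mouse. Reads were scaled to CPM, counts at a common library total, separately for exon reads and for intron reads, so a CPM value is comparable between mice and not between the read types. A log2 fold change is given throughout as pLPD offspring against offspring of CD fathers, and adjusted p-values are from the edgeR quasi-likelihood test with Benjamini-Hochberg adjustment, with a threshold of 0.05. Exon and intron reads come from the same libraries, so the effects of the 2 read types are not independent, and they are given side by side.

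Introns held a larger share of the reads in each of the 3 pLPD mice than in any CD mouse. The share was 38.8%, 37.3% and 38.8% in the 3 CD mice and 50.1%, 43.4% and 42.3% in the 3 pLPD mice. The means were 38.3% ± 0.882 (SD, n = 3) and 45.2% ± 4.21 (SD, n = 3), and the exact two-sided permutation test gave p = 0.1, the smallest value that 3 mice against 3 allow. The introns of 3 genes, Zc3h7a, Peak1 and Filip1l, each held over 1% of these intron reads in at least 1 library, and together they held 12.0%, 8.68% and 8.51% in the CD mice and 29.1%, 13.9% and 23.0% in the pLPD mice. Only 0.748% of the Peak1 intron reads and 0% of the Filip1l intron reads were placed uniquely in the genome, against 34.7% for Zc3h7a and a median of 99.7% over the 9112 genes. The Peak1 span overlaps 5 listed genes, among them the miRNA gene Gm24270. Zc3h7a overlaps the miRNA gene Gm23935 and the snRNA gene Gm24145, and Filip1l overlaps Cmss1. The part of the overlapping genes in these intron reads was not tested. Without Zc3h7a, Peak1 and Filip1l the share was 35.9% ± 0.760 against 39.1% ± 2.79 (SD, n = 3 in each), the groups overlapped, and the exact two-sided permutation test gave p = 0.2. With uniquely placed reads it was 36.6% ± 0.763 against 40.5% ± 2.93 (SD, n = 3 in each), without overlap, and the same exact test gave p = 0.1. The median gene had an intron share of 39.5% ± 0.0675 in the CD mice and 40.8% ± 2.30 in the pLPD mice (SD, n = 3 in each, exact permutation test p = 0.4). Mitochondrial rRNA also held more of the gene reads in the pLPD mice, 18.2%, 13.5% and 15.6% against 10.5%, 10.1% and 9.29%, and its part in the intron share was not tested. The 4 libraries of the fathers' generation came from mice of 10 to 12 weeks of age that were fed CD or LPD themselves. In these libraries the share was 37.4% to 39.1%. Zc3h7a, Peak1 and Filip1l introns held 1.52% and 1.31% of intron reads in mice fed CD, and 2.79% and 2.21% with LPD.

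**Figure D1:**
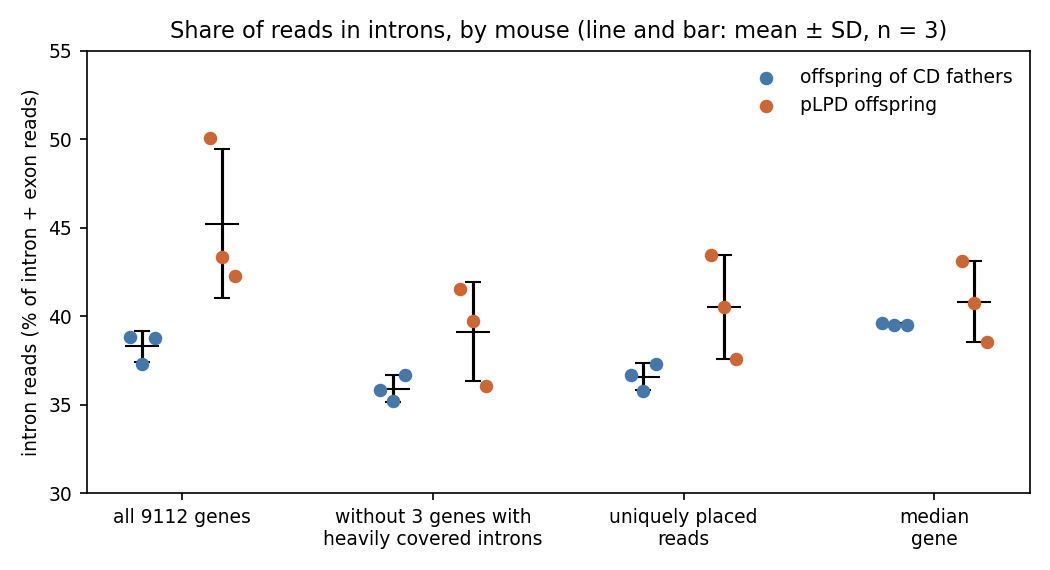
Intron reads as a percentage of intron plus exon reads in each mouse, for all 9112 genes, without Zc3h7a, Peak1 and Filip1l, for uniquely placed reads and for the median gene, with points for single mice and lines with bars for the mean ± SD of 3 mice. The pLPD offspring lie above the offspring of CD fathers over all genes, at 42.3% to 50.1% against 37.3% to 38.8%, and the groups overlap once the 3 genes are left out.

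Each read type was scaled by its own total. The median log2 fold change over the 9112 genes was 0.02 for exon reads and 0.02 for intron reads. With the exon scaling applied to intron reads, the median intron fold change was 0.11 and the median difference was -0.08. Exon profiles differed by a robust SD of 0.181 to 0.228 in log2 ratio over the genes between CD mice and of 0.216 to 0.259 between pLPD mice. Between the groups the robust SD was 0.222 to 0.302, which overlaps the values within the groups. CD mouse 3 stood at 0.222 from pLPD mouse 3 and at 0.223 and 0.228 from CD mice 1 and 2.

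Exon reads were lower in pLPD mice for 97 of the 9112 genes and higher for 14, beside 1.02% and 0.142% of all 14049 genes tested for exon reads, which makes 111 genes in either direction beside 1.17%. Intron reads were lower for 29 genes and higher for 15, beside 0.261% and 0.149% of the 13412 genes tested for intron reads, which makes 44 genes in either direction beside 0.41%. The test of the difference between the exon and the intron fold change, in which each mouse is its own block, passed the threshold for 7 genes, beside 0.0667% of the 11991 genes tested. In 5 of them the fold change was lower in exon reads and in 2 it was lower in intron reads, beside 0.05% and 0.0167%. These shares lie near those of all genes tested. At an unadjusted p under 0.05, exon reads were higher for 728 and lower for 765 genes, beside 15.3% of all genes tested in either direction, and intron reads were higher for 614 and lower for 701, beside 13.8%. The difference reached it for 679 genes, beside 7.27%, and a gene that did not pass the threshold is not shown to move equally in both read types. The 3 mice of each group did not overlap in exon reads of 1043 higher and 903 lower genes, beside 9.78% and 10.3% of all genes tested, nor in intron reads of 1000 higher and 806 lower genes, beside 8.98% and 9.83%. All 3 counts depended on single mice, and they were highest without CD mouse 3. With CD mouse 1, 2 or 3 left out, exon reads passed for 9, 17 and 373 genes, and with pLPD mouse 1, 2 or 3 left out for 36, 13 and 111. For intron reads these counts were 8, 1 and 154, and then 16, 5 and 41. For the difference they were 9, 6 and 86, and then 8, 7 and 4. Counts for gene lists, given below, stand beside the counts over all 9112 genes in this paragraph, with and without a mouse left out.

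By the calls, 10 genes were lower in both read types and 1 was higher in both. Exon reads and not intron reads passed for 87 lower and 13 higher genes, and intron reads and not exon reads passed for 19 lower and 14 higher genes. None passed in opposite directions, and 8968 passed in neither. Of the 100 genes called in exon reads and not in intron reads, 2 also passed the test of the difference (Acacb and Acsl5), and of the 33 called in intron reads and not in exon reads 1 did (Peak1). For the rest, a call in 1 read type alone is no evidence that the read types differ. Without CD mouse 3 the classes held 66, 306 and 87 genes, called in both, in exon reads and not intron reads, and in intron reads and not exon reads.

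**Figure D2:**
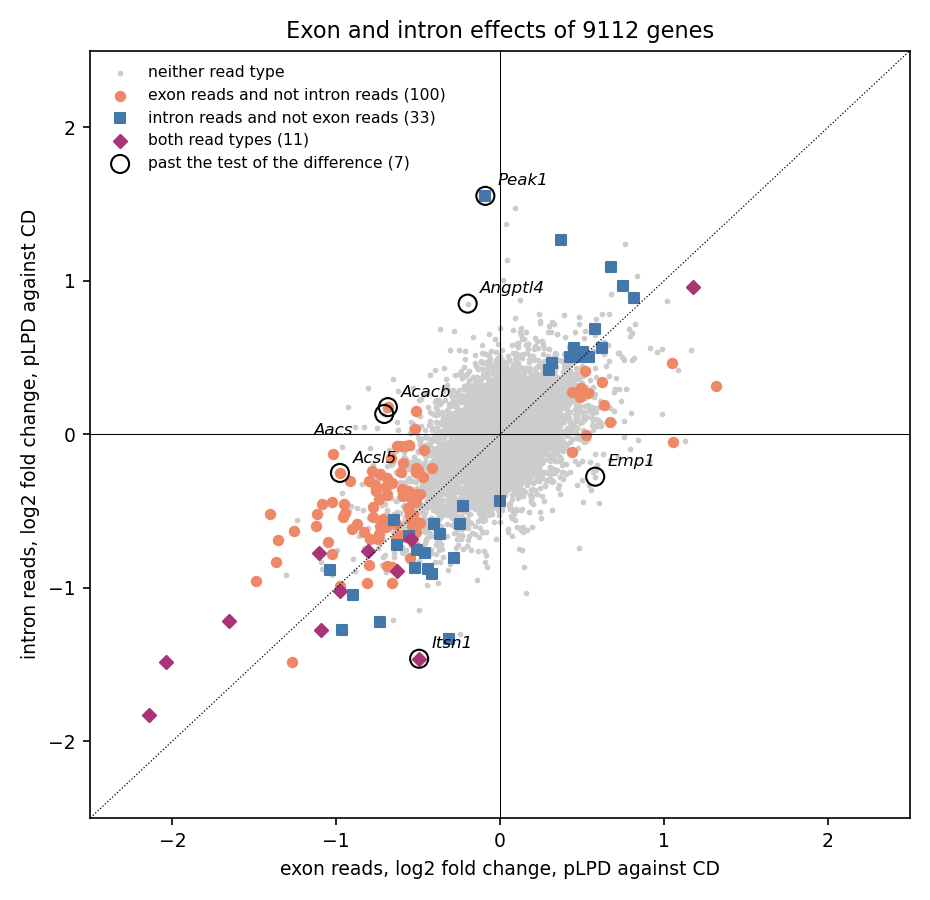
Log2 fold change of exon reads (x axis) against that of intron reads (y axis) for the 9112 genes, pLPD offspring against offspring of CD fathers, with colours for the read types that passed the threshold, circles for the 7 genes past the test of the difference and a dotted line where both fold changes are equal. Acacb, Aacs and Acsl5 lie to the left, with exon fold changes of -0.68, -0.71 and -0.98 beside intron fold changes of 0.18, 0.13 and -0.25.

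Of the 5 genes with the lower fold change in exon reads, 3 act on fatty acids or their precursors. Acacb (mm10 chr5:114146535-114250761, plus strand) encodes the acetyl-CoA carboxylase of the outer mitochondrial membrane, whose product, malonyl-CoA, restrains the entry of fatty acids into mitochondria. In exons it had 1961, 1791 and 1945 CPM in the CD mice and 1088, 1096 and 1361 CPM in the pLPD mice. In introns it had 313, 317 and 331 CPM in the CD mice and 322, 350.0 and 415 CPM in the pLPD mice. Every pLPD mouse was below every CD mouse in exon reads, whereas the groups overlapped in intron reads. The log2 fold change was -0.68 ± 0.115 (SE) for exon reads, with an adjusted p of 0.0216, and 0.18 ± 0.0942 (SE) for intron reads, with an adjusted p of 0.444. The difference was -0.86 ± 0.116 (SE), with an adjusted p of 0.00150.

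Aacs (chr5:125475814-125517410, plus strand) encodes acetoacetyl-CoA synthetase, the cytosolic enzyme that lets ketone bodies be used for the synthesis of lipids. The exon reads were 631, 643 and 651 CPM in the CD mice and 259, 425 and 496 CPM in the pLPD mice. The intron reads were 119, 125 and 136 CPM against 87.6, 145 and 185 CPM. In pLPD mouse 1 both read types were lowest, and in each pLPD mouse exon reads were low for the amount of intron reads. The ratio of exon to intron CPM was 5.28, 5.15 and 4.80 in the CD mice and 2.96, 2.93 and 2.68 in the pLPD mice. The difference in Aacs was -0.83 ± 0.107 (SE) on the log2 scale, with an adjusted p of 0.00150, while neither exon reads (-0.71 ± 0.182, adjusted p 0.0908) nor intron reads (0.13 ± 0.195, adjusted p 0.823) passed alone.

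Acsl5 (chr19:55253369-55296627, plus strand) encodes a long-chain acyl-CoA synthetase, which activates fatty acids for further use. Exon reads were 186, 189.9 and 205 CPM in the CD mice and 127, 87.8 and 80.5 CPM in the pLPD mice, without overlap. Intron reads were 73.3, 66.9 and 93.6 CPM against 72.0, 58.3 and 65.9 CPM, with overlap. The Acsl5 exon fold change of -0.98 ± 0.144 (SE, adjusted p 0.0118) stood beside an intron fold change of -0.25 ± 0.132 (SE, adjusted p 0.437). The difference was -0.75 ± 0.137 (SE), with an adjusted p of 0.0365, and it passed in 2 of the 6 fits that leave out a mouse.

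Angptl4 (chr17:33773750-33781575, minus strand) encodes a secreted protein that inhibits lipoprotein lipase and so limits the uptake of fatty acids from the blood. The exons held 183, 202 and 81.8 CPM in the CD mice and 195, 102 and 109.6 CPM in the pLPD mice, with overlap. Intron reads numbered 22.9, 28.2 and 11.6 CPM against 51.9, 33.7 and 27.7 CPM, with 2 of the 3 pLPD mice above every CD mouse. The ratio of exon to intron CPM was 7.98, 7.15 and 7.08 in the CD mice and 3.77, 3.03 and 3.95 in the pLPD mice. The groups overlapped in each read type and not in the ratio, with a difference of -1.06 ± 0.141 (SE) and an adjusted p of 0.00150. For Angptl4 the exon fold change was -0.20 ± 0.302 (SE) and the intron fold change was 0.85 ± 0.284 (SE), with adjusted p-values of 0.812 and 0.204.

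Peak1 (chr9:56201126-56418067, minus strand), which encodes a pseudokinase that acts on the cytoskeleton, had the widest difference of the 7 genes, and it rests on reads that mostly match more than 1 place. The Peak1 span also overlaps 5 listed genes, among them Gm24270, a miRNA gene on the same strand, so this value is uncertain. Exon reads were 118, 122 and 116 CPM in the CD mice and 108, 112 and 115 CPM in the pLPD mice. Intron reads were 34879, 27823 and 26276 CPM against 114165, 54029 and 93102 CPM. The Peak1 intron fold change was 1.55 ± 0.242 (SE, adjusted p 0.0263), and the difference was -1.59 ± 0.237 (SE, adjusted p 0.00493).

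Of the genes with the lower fold change in intron reads, 2 passed. Emp1 (chr6:135362545-135383173, plus strand) encodes a membrane protein related to PMP22. Its exon reads were 45.3, 62.1 and 92.7 CPM in the CD mice and 102, 93.4 and 104 CPM in the pLPD mice. The introns held 14.1, 23.3 and 31.1 CPM against 18.3, 16.5 and 22.1 CPM. The Emp1 groups overlapped in intron reads and not in exon reads, and the difference was 0.86 ± 0.154 (SE, adjusted p 0.0313). Itsn1 (chr16:91729281-91920597, plus strand) encodes intersectin, a scaffold protein of endocytosis, and its intron reads were 82.9, 99.4 and 103 CPM against 24.7, 41.1 and 37.7 CPM. In exons it had 117, 122 and 112 CPM against 74.6, 79.1 and 96.1 CPM. Both read types of Itsn1 fell, by 0.49 in exon reads and by 1.46 in intron reads on the log2 scale (adjusted p 0.0466 and 0.00790), and the difference was 0.97 ± 0.150 (SE, adjusted p 0.00676). No intron read of Itsn1 was placed uniquely, and its span overlaps another gene, Atp5o, so this value is uncertain. The 3 genes next in p in this direction did not pass: Zfp949, Dusp4 and Chst11 had differences of 1.17, 0.81 and 0.80, each with an adjusted p of 0.0507, and 10.2% of the Zfp949 intron reads were unique.

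The differences of Aacs, Acacb and Angptl4 passed in all 6 fits that leave out 1 mouse, over which they ranged from -0.87 to -0.80, from -0.90 to -0.82 and from -1.13 to -0.95. Peak1 was lost without CD mouse 2. Itsn1 was lost without pLPD mouse 1 or 3. Acsl5 was lost without CD mouse 1 or 2 and without pLPD mouse 2 or 3. Emp1 was lost without CD mouse 2 and without pLPD mouse 1, 2 or 3. With reads across exon junctions, which come from spliced RNA alone, in place of all exon reads, the differences of Acacb, Aacs, Acsl5, Angptl4, Itsn1 and Peak1 passed and that of Emp1 did not. With uniquely placed reads Peak1 did not pass, and Itsn1 could not be tested, as it had no unique intron read. In DESeq2 Acsl5 and Emp1 did not pass. With limma-trend on the log2 ratio no gene passed, where 577 genes had an unadjusted p under 0.05 and the lowest adjusted p was 0.111.

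**Figure D3:**
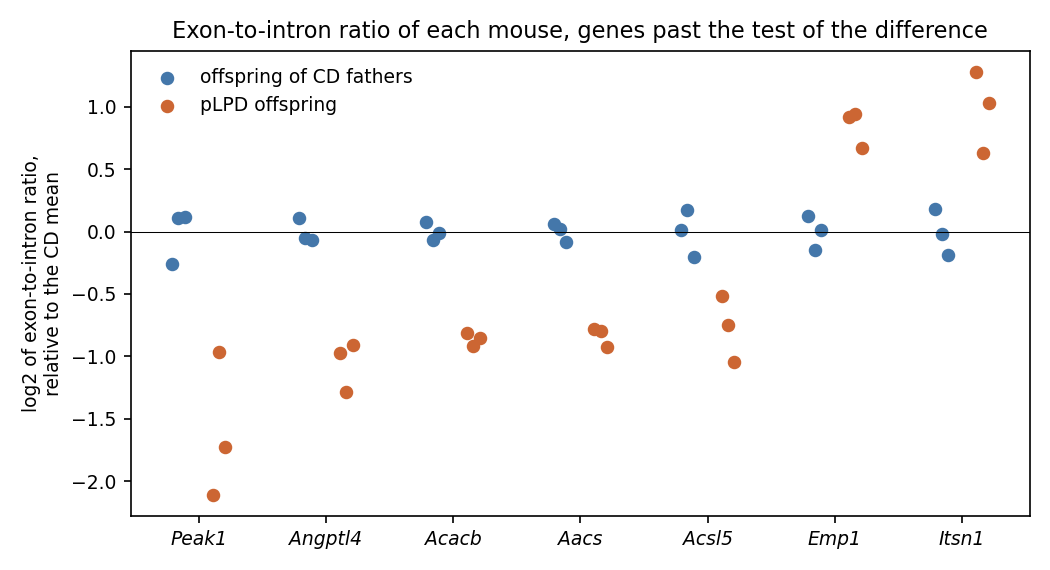
Ratio of exon to intron CPM in each mouse for the 7 genes past the test of the difference, as log2 relative to the mean of the 3 offspring of CD fathers. In Angptl4 the ratio is 7.08 to 7.98 in the CD mice and 3.03 to 3.95 in the pLPD mice, and the groups do not overlap in any of the 7 genes, as the choice of genes makes likely.

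The start sites of the 3 fatty acid genes are shown because in all of them the fold change was lower in exon reads than in intron reads by the test of the difference. Angptl4 and Peak1 had the same direction, but no window was available for Angptl4, and that of Peak1 is not shown. Each sequence is the RefSeq promoter window of 300 bases on GRCm38.p6, written 5′ to 3′ on the strand of the gene, and capitals mark a CCAAT box (CCAAT) or a TATA box (TATAAA), searched on both strands. The windows are chr5:114165268-114165567 for Acacb, chr5:125475623-125475922 for Aacs and chr19:55253119-55253418 for Acsl5, all on the plus strand.
Acacb: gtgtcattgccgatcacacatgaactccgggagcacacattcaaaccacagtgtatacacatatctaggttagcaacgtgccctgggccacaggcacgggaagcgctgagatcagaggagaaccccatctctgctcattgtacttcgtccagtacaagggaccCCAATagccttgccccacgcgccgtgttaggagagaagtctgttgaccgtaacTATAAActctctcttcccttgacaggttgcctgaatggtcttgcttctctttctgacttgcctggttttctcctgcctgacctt
Aacs: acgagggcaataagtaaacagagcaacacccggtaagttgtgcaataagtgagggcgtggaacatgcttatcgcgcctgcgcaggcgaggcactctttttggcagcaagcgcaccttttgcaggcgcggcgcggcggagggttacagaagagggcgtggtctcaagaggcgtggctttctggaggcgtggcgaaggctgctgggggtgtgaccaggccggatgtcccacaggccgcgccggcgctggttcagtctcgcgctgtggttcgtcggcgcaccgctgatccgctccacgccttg
Acsl5: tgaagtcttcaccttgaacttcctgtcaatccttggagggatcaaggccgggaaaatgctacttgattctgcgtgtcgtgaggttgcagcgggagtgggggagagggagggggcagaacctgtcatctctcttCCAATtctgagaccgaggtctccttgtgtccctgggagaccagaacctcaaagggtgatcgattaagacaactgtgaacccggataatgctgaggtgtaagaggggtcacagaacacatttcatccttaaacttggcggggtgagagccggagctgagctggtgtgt
The CCAAT box stands in the windows of Acacb and Acsl5 and in 37.4% of the 32851 windows of this length, and the TATA box stands in that of Acacb and in 13.6% of all windows. An E-box (CACGTG, 7.15% of all windows), a GC box (GGGCGG, 35.7%) and a sterol response core (TCACNCCAC, with N for any base, 1.24%) were not found in these 3 windows. The Acacb window lies inside the span of the gene as the files give it, chr5:114146535-114250761, so RefSeq places this start site downstream of the start of that span.

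The wider set of lipogenic enzymes had a lower median fold change in exon reads than in intron reads. The list was written from textbook knowledge with earlier results of these data known, and 27 of its 30 genes were among the 9112. Exon reads fell for 4 of the 27 (Acacb, Slc25a1, Elovl6 and Elovl5) and rose for 0, intron reads rose for 1 (Pck1) and fell for 0, and the difference passed for 1 (Acacb). Of all 9112 genes, 1.06% fell and 0.154% rose in exon reads, and 0.318% fell and 0.165% rose in intron reads. The median log2 fold change of the list was -0.37 in exon reads and -0.10 in intron reads, beside 0.02 and 0.02 over all 9112 genes. The median difference was -0.27, beside 0.01 over all genes, and 20 of the 27 differences were negative, beside 4343 of 9112. The summed exon level of the 30 listed genes was 121843, 118482 and 87265 CPM in the CD mice. In the pLPD mice it was 74690, 79834 and 89424 CPM, so the groups overlapped, with CD mouse 3 below pLPD mouse 3. With CD mouse 1, 2 or 3 left out, exon reads fell for 0, 2 and 14 of the 27 genes, and with pLPD mouse 1, 2 or 3 left out for 2, 0 and 5. The difference passed for 1 gene in 5 of these fits and for 10 without CD mouse 3, where 53 of all 9112 genes passed in this direction and 262 fell in exon reads. The 10 were Acacb, Acly, Acss2, Agpat2, Elovl6, Hsd17b12, Me1, Scd1, Scd2 and Tecr. Over the 6 fits the list median ranged from -0.51 to -0.30 in exon reads and from -0.20 to 0.07 in intron reads, and the median difference from -0.44 to -0.14.

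Elovl6 encodes the elongase that lengthens the palmitate made by fatty acid synthase, and its exon reads were 1273, 1119 and 675 CPM in the CD mice and 412, 343 and 404 CPM in the pLPD mice. For introns the values were 288, 267 and 333 CPM against 162, 211 and 248 CPM. Both read types of Elovl6 were lower in every pLPD mouse than in any CD mouse. The exon fold change of Elovl6 was -1.40 ± 0.192 (SE, adjusted p 0.00868), its intron fold change was -0.52 ± 0.134 (SE, adjusted p 0.110), and the difference of -0.83 ± 0.219 (SE) did not pass (adjusted p 0.209). Elovl5, an elongase of polyunsaturated fatty acids, had an exon fold change of -0.59 ± 0.0781 (SE, adjusted p 0.00735) and an intron fold change of -0.19 ± 0.101 (SE, adjusted p 0.449). Slc25a1, the mitochondrial citrate carrier that supplies carbon for lipogenesis, had -1.12 in exon reads (adjusted p 0.0178) and -0.60 in intron reads (adjusted p 0.379).

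Pck1, whose product makes the glycerol backbone of triglyceride in fat, was the member of the list with higher intron reads. Its introns gave 62.7, 45.9 and 77.8 CPM in the CD mice and 111, 111 and 142 CPM in the pLPD mice, without overlap. The exons held 1134, 1134 and 1233 CPM against 2789, 1367 and 1734 CPM, also without overlap. The Pck1 fold change was 0.97 ± 0.165 (SE, adjusted p 0.0321) in intron reads and 0.75 ± 0.206 (SE, adjusted p 0.108) in exon reads. Scd1, the stearoyl-CoA desaturase, is named after its values were seen, because it had the lowest difference of the list, -1.08 (adjusted p 0.379). Its exon reads were 42775, 39292 and 29103 CPM against 29316, 27818 and 29114 CPM, and its intron reads were 197, 159 and 386 CPM against 238, 462 and 494 CPM. In both read types CD mouse 3 lay nearer to the pLPD mice than to CD mice 1 and 2.

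**Figure D4:**
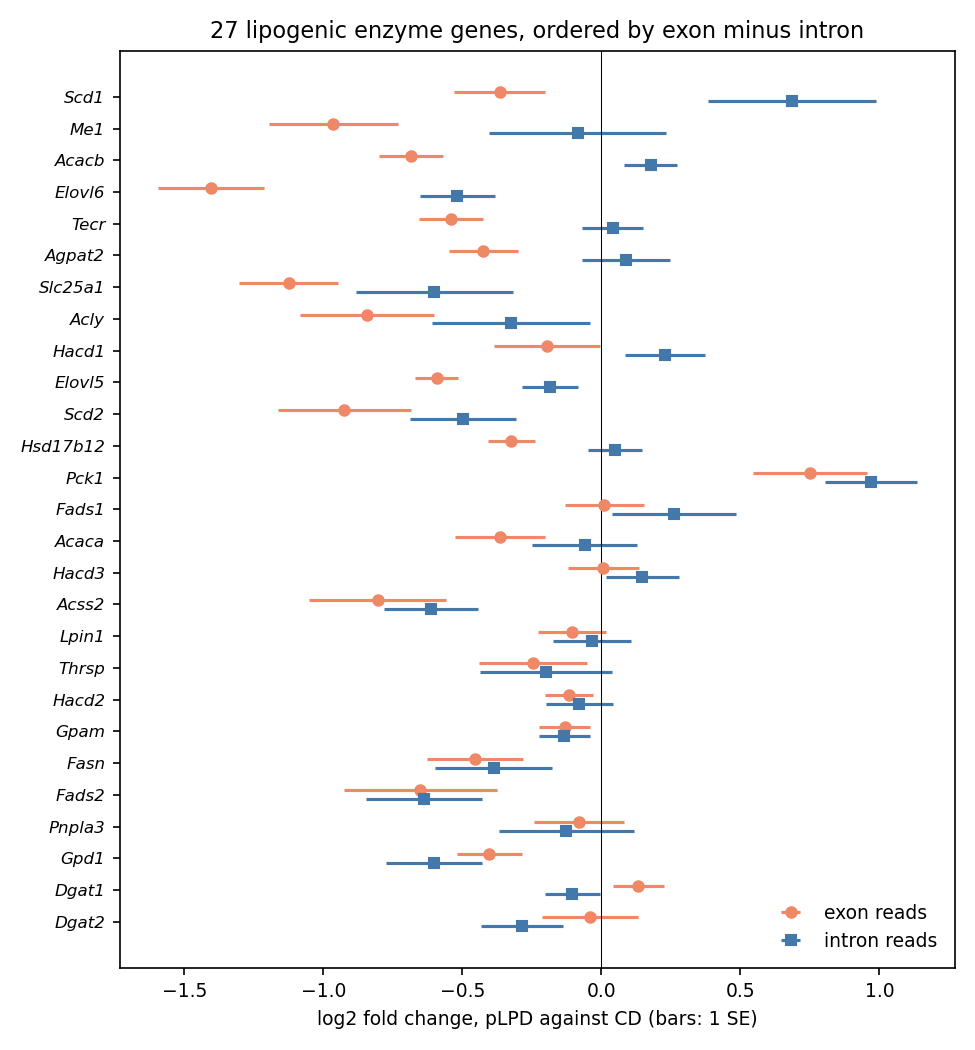
Log2 fold change of exon reads and of intron reads, pLPD offspring against offspring of CD fathers, for the 27 lipogenic enzyme genes, with bars of 1 SE and genes ordered by the fitted difference between exon and intron fold change. For 20 of the 27 genes the difference is negative, and Acacb is the gene past the test.

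The study names 13 genes in the iWAT of the offspring, of which 10 were among the 9112, and since they were picked on these mice their direction is not independent evidence. Exon reads fell for 5 of them (Acacb, Elovl5, Elovl6, Pfkl and Ppp2r5b) and intron reads fell for 1 (Tbxas1), and the medians were -0.71 in exon reads and -0.27 in intron reads. With 1 mouse left out, exon reads fell for 0 to 8 of the 10, for 0 without CD mouse 1 or pLPD mouse 2 and for 8 without CD mouse 3. Ppp2r5b, a regulatory subunit of protein phosphatase 2A, had nearly the same value in both, -0.98 in exon reads (adjusted p 0.0448) and -0.99 in intron reads (adjusted p 0.101). Tbxas1, thromboxane synthase, had -0.89 in intron reads (adjusted p 0.0222) and -1.04 in exon reads (adjusted p 0.0749). Acly, ATP citrate lyase, had -0.84 in exon reads (adjusted p 0.124) and -0.32 in intron reads (adjusted p 0.664). Mlxipl, which encodes the transcription factor ChREBP, had -0.55 (adjusted p 0.0703) and -0.28 (adjusted p 0.532), and Tecr, of the elongation cycle, had -0.54 (adjusted p 0.0512) and 0.04 (adjusted p 0.911). For ChREBP the study reports a stronger reduction in its own RNA-seq analysis, past its threshold. By qRT-PCR it reports lower ChREBP-β and unchanged ChREBP-α, isoforms that these gene counts do not separate. Peli1, a ubiquitin ligase, had 0.46 (adjusted p 0.0512) in exon reads and 0.28 (adjusted p 0.163) in intron reads.

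Glycolysis, which supplies the carbon, was lower in exon reads for 4 of 20 listed genes (Eno1, Pkm, Gpi1 and Pfkl) and lower in intron reads for 1 (Hk2), and none rose. Of all 9112 genes, 1.06% were lower in exon reads and 0.318% in intron reads. The list medians were -0.26 in exon reads and -0.07 in intron reads. Pfkl, the liver-type phosphofructokinase, had 447, 446 and 400.1 CPM in exon reads in the CD mice and 313, 229.9 and 234 CPM in the pLPD mice. Its intron reads were 30.6, 32.5 and 30.6 CPM against 22.8, 27.6 and 28.0 CPM. Neither read type of Pfkl overlapped between the groups, with fold changes of -0.73 (adjusted p 0.0204) and -0.26 (adjusted p 0.419). Gpi1, glucose-6-phosphate isomerase, had -0.69 (adjusted p 0.0114) and -0.28 (adjusted p 0.267), and Pkm, pyruvate kinase, had -0.66 (adjusted p 0.0338) and -0.32 (adjusted p 0.190). Hk2, hexokinase 2, had -0.28 in exon reads (adjusted p 0.437) and -0.80 in intron reads (adjusted p 0.0478). Eno1, enolase, had -0.53 in exon reads (adjusted p 0.0371) and -0.52 in intron reads (adjusted p 0.104), and only 23.4% of its exon reads were unique. With 1 mouse left out, exon reads fell for 0 to 6 of the 20 genes, the most without CD mouse 3, and for 0 without CD mouse 1, CD mouse 2 or pLPD mouse 2. Intron reads fell for 1 gene without CD mouse 3 and for 0 in the other 5 fits.

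No gene passed in edgeR, in exon or intron reads, in the list of pyruvate entry and the TCA cycle and in that of the nuclear genes of the respiratory chain. At an unadjusted p under 0.05, exon reads of the TCA list were lower for 1 gene and intron reads higher for 1, and in the respiratory chain exon reads were lower for 2 genes and intron reads higher for 1. The TCA list had medians of -0.05 in exon reads and 0.16 in intron reads over 21 genes, and the respiratory chain list had -0.06 and 0.08 over 54 genes. The difference was negative for 15 of the 21 and for 44 of the 54 genes, and it passed for 0 genes in both lists, where at an unadjusted p under 0.05 it was negative for 5 and 6 genes and positive for 0 and 0. Over all 9112 genes the difference was negative for 4343, and at an unadjusted p under 0.05 it was negative for 339 and positive for 340. At that p, exon reads were lower for 765 and higher for 728 of all genes, and intron reads for 701 and 614. Ogdh, of the 2-oxoglutarate dehydrogenase complex, had -0.03 in exon reads and 0.16 in intron reads. Atp5b, a subunit of ATP synthase, had -0.02 and 0.38, and Uqcrc1, of complex III, had -0.09 and 0.38. Without CD mouse 3, exon reads fell for 1 gene of the TCA list. In DESeq2 the difference was called for 5 of the 9112 genes, none of them in these lists.

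Genes of the extracellular matrix had medians below 0 in both read types. Of 24 matrix and collagen-processing genes, exon reads fell for 7 (Fn1, Eln, Pcolce, Bmp1, Fbln1, Fbln2 and Mmp14), intron reads fell for 2 (Fn1 and Fbn1), and none rose. Of all 9112 genes, 1.06% fell in exon reads and 0.318% in intron reads. The medians were -0.44 and -0.48, and the median difference was 0.02. Fn1, which encodes fibronectin, had exon reads of 1086, 1228 and 996 CPM in the CD mice and 525, 637 and 735 CPM in the pLPD mice. In introns it had 82.7, 73.9 and 76.2 CPM against 42.1, 39.3 and 56.7 CPM. Fn1 was lower in every pLPD mouse in both read types, with fold changes of -0.80 ± 0.131 (SE, adjusted p 0.0196) and -0.76 ± 0.134 (SE, adjusted p 0.0364) and a difference of -0.04 ± 0.138 (SE, adjusted p 0.978).

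Fbn1, fibrillin-1, had intron reads of 357, 377 and 201 CPM in the CD mice and 163, 108 and 130.0 CPM in the pLPD mice. Its fold change was -1.22 ± 0.206 in intron reads (SE, adjusted p 0.0321) and -0.73 ± 0.157 in exon reads (SE, adjusted p 0.0512). Eln, elastin, had -0.95 in exon reads (adjusted p 0.0429) and -0.51 in intron reads (adjusted p 0.0786), and Pcolce, which promotes the cleavage of procollagen, had -0.60 (adjusted p 0.0489) and -0.24 (adjusted p 0.612). Among 14 collagen genes, exon reads fell for Col1a2 and intron reads for Col1a1, the chains of type I collagen, and the medians were -0.39 and -0.56. The median difference of the collagens was 0.23, and 11 of 14 differences were positive, beside 4769 of 9112. At an unadjusted p under 0.05, 5 were positive and 0 negative, beside 340 and 339 of all 9112 genes. Col1a1 had exon reads of 8805, 10362 and 5283 CPM against 3754, 4601 and 4199 CPM, and intron reads of 68.2, 81.2 and 39.4 CPM against 18.7, 29.4 and 30.1 CPM. CD mouse 3 had the lowest value of the CD offspring in both read types of Col1a1, and the fold changes were -0.96 (adjusted p 0.0512) and -1.28 (adjusted p 0.0496). With 1 mouse left out, collagen genes fell in exon reads for 7 without CD mouse 3 and for 0 in the other 5 fits, and in intron reads for 7 without CD mouse 3, 1 without pLPD mouse 3 and 0 otherwise. Of the 24 other matrix genes 11 fell in exon reads without CD mouse 3, 2 and 5 without pLPD mouse 1 and 3, and 0 without CD mouse 1, CD mouse 2 or pLPD mouse 2. Over all 9112 genes, 373 passed in exon reads and 154 in intron reads without CD mouse 3, in either direction.

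**Figure D5:**
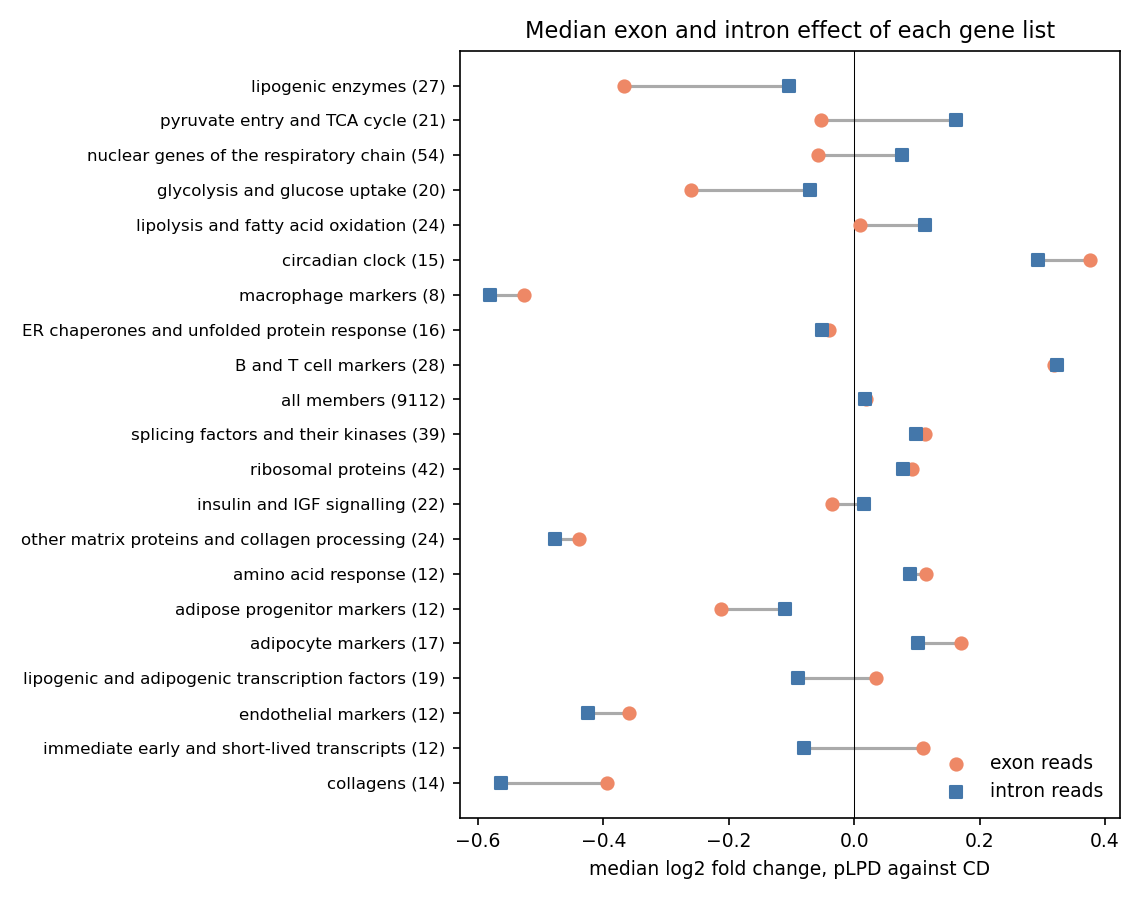
Median log2 fold change of exon reads (circles) and intron reads (squares), pLPD offspring against offspring of CD fathers, for each gene list with the number of its genes among the 9112, ordered by the median difference. Lipogenic enzymes stand at -0.37 in exon reads and -0.10 in intron reads, whereas matrix genes stand at -0.44 and -0.48 and B and T cell markers at 0.32 and 0.32.

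The genes lower in both read types were ranked by the smaller of their exon and intron fold changes in size, and the first 4 were Hephl1, Ttc25, Adcy10 and Cdc42bpg. Hephl1, a copper-dependent ferroxidase, had exon reads of 65.7, 77.8 and 54.8 CPM in the CD mice and 13.8, 13.0 and 18.2 CPM in the pLPD mice. Intron reads numbered 20.2, 21.6 and 39.6 CPM against 6.56, 9.63 and 6.40 CPM, and the groups were apart in both read types. The Hephl1 fold changes were -2.15 ± 0.161 (SE, adjusted p 0.000383) and -1.83 ± 0.279 (SE, adjusted p 0.0261). Ttc25, of the dynein docking complex of cilia, had exon reads of 25.3, 24.4 and 22.8 CPM against 4.15, 6.62 and 6.85 CPM. The introns held 15.5, 17.7 and 20.6 CPM against 3.86, 7.22 and 8.30 CPM, which also left the groups apart. The Ttc25 fold changes were -2.04 (adjusted p 0.00114) and -1.48 (adjusted p 0.0321).

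Adcy10, the soluble adenylyl cyclase that bicarbonate activates, had -1.65 in exon reads (adjusted p 0.00984) and -1.22 in intron reads (adjusted p 0.0321). Cdc42bpg, a kinase that binds Cdc42, had -1.09 (adjusted p 0.00633) and -1.28 (adjusted p 0.0261). With 1 mouse left out, the exon calls of Hephl1, Ttc25, Adcy10 and Cdc42bpg passed in 6, 6, 4 and 5 of 6 fits, and the intron call of each passed in 2. The other genes lower in both were Antxr1, Fn1, Itsn1, Nabp1, Sh3pxd2b and Ston1. Gm14085 was the gene higher in both, with exon reads of 4.18, 3.24 and 4.70 CPM against 10.6, 8.41 and 8.41 CPM and intron reads of 15.1, 13.4 and 11.4 CPM against 28.6, 26.5 and 22.3 CPM. The Gm14085 fold changes were 1.18 (adjusted p 0.0448) and 0.96 (adjusted p 0.0321), and with 1 mouse left out the exon call passed in 1 and the intron call in 2 of 6 fits.

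The 4 largest exon fold changes among genes higher in exon reads and not in intron reads were those of Mest, Pole, Ppargc1a and Slc16a7. Mest, an imprinted gene expressed from the paternal allele and known for its link with fat expansion, had exon reads of 14.3, 19.9 and 20.7 CPM against 56.7, 37.9 and 42.7 CPM. For introns the values were 7.25, 10.9 and 9.99 CPM against 15.2, 8.15 and 11.9 CPM, so that the groups overlapped in intron reads and not in exon reads. The Mest fold change was 1.32 ± 0.175 (SE, adjusted p 0.00756) in exon reads and 0.32 ± 0.258 (SE, adjusted p 0.636) in intron reads, and the difference of 1.01 ± 0.222 (SE) did not pass (adjusted p 0.106).

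Ppargc1a, the coactivator of mitochondrial biogenesis, had exon reads of 18.9, 16.2 and 16.5 CPM against 46.8, 27.4 and 32.8 CPM, and intron reads of 49.8, 45.9 and 53.5 CPM against 77.4, 70.2 and 57.6 CPM. Neither read type overlapped, and the Ppargc1a fold changes were 1.05 (adjusted p 0.0260) and 0.46 (adjusted p 0.118). Pole, the catalytic subunit of DNA polymerase epsilon, had 1.06 in exon reads (adjusted p 0.0228) and -0.05 in intron reads (adjusted p 0.959). Slc16a7, a monocarboxylate transporter, had 0.67 (adjusted p 0.0313) and 0.08 (adjusted p 0.766). On the lower side, beside Elovl6, the largest exon fold changes were those of Prune2 (-1.49), Tmem79 (-1.37) and Slc2a5 (-1.36), the fructose transporter, with intron fold changes of -0.96, -0.83 and -0.69 that did not pass.

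Genes called in intron reads and not in exon reads were long. Their median gene length was 150861 bases for the 19 lower and 90899 bases for the 14 higher genes, beside 33482 bases over all 9112 genes, and introns held 55.8% and 77.8% of their reads, beside 40.0%. The median SE of the fold change in the higher genes was 0.0969 for intron reads and 0.135 for exon reads. In the 87 genes lower in exon reads and not in intron reads the order was the other way, 0.163 for intron reads and 0.118 for exon reads, with an intron share of 20.1%. In the 19 lower genes called in intron reads it was 0.129 for intron reads and 0.165 for exon reads. Over all 9112 genes the median SE was 0.140 for intron reads and 0.120 for exon reads. A smaller SE makes a call likelier, so choosing classes by the read type that passed favours this order. It is not a result about these genes.

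Among the lower genes, Sgms2, a sphingomyelin synthase, had intron reads of 23.5, 23.1 and 15.7 CPM against 7.33, 9.07 and 8.30 CPM and exon reads of 10.4, 10.8 and 8.06 CPM against 9.67, 6.06 and 7.94 CPM. The Sgms2 fold change was -1.33 in intron reads (adjusted p 0.0261) and -0.31 in exon reads (adjusted p 0.557), and the difference of 1.01 did not pass (adjusted p 0.338). Gm4951 had -1.05 in intron reads (adjusted p 0.0364) and -0.90 in exon reads (adjusted p 0.108). Among the higher genes, Txnip, an inhibitor of thioredoxin that glucose induces, had 1.27 in intron reads (adjusted p 0.0261) and 0.37 in exon reads (adjusted p 0.124), but none of its intron reads and 27.4% of its exon reads were unique and an antisense gene overlaps it.

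Markers of immune cells had similar medians in both read types, above 0 for lymphocytes and below 0 for macrophages. In bulk tissue, fewer cells of a type and less RNA per cell cannot be told apart. Of 28 B and T cell markers, intron reads rose for 2 (Themis and Cd247) and exon reads passed for 0, with 15 higher and 0 lower at an unadjusted p under 0.05, and the medians were 0.32 in exon reads and 0.32 in intron reads. Of all 9112 genes, intron reads rose for 15, and at that unadjusted p exon reads were higher for 728 and lower for 765. Themis, a signalling protein of T cell development, had intron reads of 266, 247 and 282 CPM in the CD mice and 395, 412 and 367 CPM in the pLPD mice. In exons it had 24.4, 26.5 and 27.8 CPM against 42.1, 46.6 and 32.2 CPM, and neither read type overlapped. The Themis fold change was 0.56 ± 0.0813 in intron reads (SE, adjusted p 0.0229) and 0.62 ± 0.139 in exon reads (SE, adjusted p 0.0578). Cd247, the zeta chain of the T cell receptor complex, had 0.46 in intron reads (adjusted p 0.0428) and 0.32 in exon reads (adjusted p 0.333). The summed exon level of the 29 listed lymphocyte markers was 1643 to 1828 CPM in the CD mice and 1781 to 2352 CPM in the pLPD mice, with overlap. With 1 mouse left out, the list held 0 to 4 exon calls, the most without pLPD mouse 3, and 0 to 5 intron calls, the most without CD mouse 3, and all of them were higher. It held 0 of both without CD mouse 1, CD mouse 2 or pLPD mouse 2.

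Of 8 macrophage markers, exon reads fell for 4 (Lyz2, Csf1r, Cd163 and Adgre1), intron reads passed for 0, with 6 lower and 0 higher at an unadjusted p under 0.05, and the medians were -0.53 and -0.58. Exon reads fell for 97 of all 9112 genes, and at that unadjusted p intron reads were lower for 701 and higher for 614. Csf1r, the receptor on which macrophages depend, had exon reads of 180.3, 182 and 198 CPM in the CD mice and 128, 124 and 135 CPM in the pLPD mice. Its introns gave 41.3, 33.0 and 40.4 CPM against 29.3, 19.4 and 26.6 CPM, again without overlap. The Csf1r fold changes were -0.54 (adjusted p 0.0155) and -0.61 (adjusted p 0.128). The summed exon level of the 14 macrophage markers found was 1388 to 1695 CPM against 951 to 1120.3 CPM, without overlap. Exon reads fell for 4 macrophage markers without CD mouse 3, 1 and 5 without pLPD mouse 1 and 3, and 0 without CD mouse 1, CD mouse 2 or pLPD mouse 2. Of 12 endothelial markers, 0 passed in exon reads and 0 in intron reads, where 8 and 9 were lower and 0 and 0 higher at an unadjusted p under 0.05, and the medians were -0.36 and -0.42. At that p, 765 and 701 of all 9112 genes were lower and 728 and 614 higher. Without CD mouse 3, endothelial markers fell for 2 in exon reads and 3 in intron reads, and in the other 5 fits for 0 and 0. Of all 9112 genes, 373 passed in exon reads and 154 in intron reads without CD mouse 3, in either direction. Of 12 progenitor markers, with medians of -0.21 and -0.11, intron reads fell for 1, Sema3c, at -0.72 (adjusted p 0.0321) beside -0.63 in exon reads (adjusted p 0.0628). The 17 adipocyte markers had medians of 0.17 and 0.10, 0 of them passed in either read type, with 3 lower and 3 higher in exon reads and 2 lower and 3 higher in intron reads at an unadjusted p under 0.05, and their summed exon level was 28498 to 31239 CPM against 29283 to 34688 CPM. The part of these cell types in the effects on the other gene groups was not tested. Muscle was represented by 3 genes, with medians of -0.02 and 0.16 and 0 below an unadjusted p of 0.05 in either read type, and 0 of 9 listed epithelial markers were among the 9112 genes.

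Clock genes set daily rhythms of transcription. The summed exon level of the 19 listed clock genes was 846, 808 and 1322 CPM in the CD mice and 1051, 1284 and 1413 CPM in the pLPD mice, with CD mouse 3 among the pLPD mice. Of 15 clock genes, intron reads rose for Nr1d2 and exon reads passed for 0, with 6 higher and 1 lower at an unadjusted p under 0.05, and the medians were 0.38 and 0.29. At that p, exon reads of all 9112 genes were higher for 728 and lower for 765. Nr1d2, which encodes the nuclear receptor REV-ERB beta, had exon reads of 32.5, 29.8 and 78.0 CPM in the CD mice and 66.6, 88.3 and 91.4 CPM in the pLPD mice. Its intron reads were 49.6, 48.8 and 79.5 CPM against 109, 97.4 and 123 CPM, so that CD mouse 3 lay among the pLPD mice in exon reads and between the groups in intron reads. The Nr1d2 fold change was 0.89 in intron reads (adjusted p 0.0488) and 0.82 in exon reads (adjusted p 0.210), with a difference of 0.00 (adjusted p 0.997). Without CD mouse 3, exon reads of clock genes rose for 7 and fell for 1, intron reads rose for 5 and fell for 1, and the difference passed for 1, Arntl, whereas in the other 5 fits that leave out a mouse 0 passed in exon reads, intron reads or the difference. In the fit without CD mouse 3, 373 of all 9112 genes passed in exon reads, 154 in intron reads and 86 in the difference. The part of the clock in the other effects was not tested.

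The remaining lists held few calls. Of 19 lipogenic and adipogenic regulators, exon reads rose for Ppargc1a and fell for Insig1 (-0.51, adjusted p 0.0385), and the medians were 0.04 and -0.09. Of 24 genes of lipolysis and fatty acid oxidation, exon reads fell for Abhd5, the activator of adipose triglyceride lipase (-0.49, adjusted p 0.0347), and the medians were 0.01 and 0.11. Of 22 genes of insulin and IGF signalling, exon reads fell for Ppp2r5b, and the medians were -0.04 and 0.02. Without CD mouse 3, exon reads fell for 2 of the 22 and the difference passed for 2, Igf1 and Igfbp5. No gene passed in either read type among 39 splicing factors (medians 0.11 and 0.10), 42 ribosomal proteins (0.09 and 0.08), 16 ER chaperones (-0.04 and -0.05), 12 genes of the amino acid response (0.11 and 0.09) and 12 immediate early or short-lived transcripts (0.11 and -0.08). At an unadjusted p under 0.05, splicing factors were higher for 8 genes in exon reads and 5 in intron reads and lower for 0 and 0, and ribosomal proteins were higher for 2 and 4 and lower for 0 and 1. By that measure, ER chaperones were higher for 0 and 1 and lower for 1 and 0, genes of the amino acid response higher for 3 and 1 and lower for 2 and 0, and immediate early genes higher for 1 and 0 and lower for 1 and 1. All 9112 genes together were higher for 728 and 614 and lower for 765 and 701 by that measure.

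The minimum of 20 reads left out 11335 nuclear protein-coding genes with more than 1 exon, 703 for exon reads alone, 2175 for intron reads alone and 8457 for both. Among those left out, 46 were called in exon reads and 9 in intron reads in the fits over all genes. Of 487 genes with a lowest read number of 20 to 24, 8 were called in exon reads and 1 in intron reads, and of 588 genes just outside, with 15 to 19, 6 and 0 were. Of the 9112 genes, 5069 overlap another listed gene, whose reads cannot be told apart without strand, and in 598 genes fewer than 50% of the intron reads were unique.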

How the data were processed

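The members and the gene lists were chosen with earlier results of these data known. The deposited counts are the authors' whole read numbers of each gene, split into exon, intron and exon-junction columns, made in CLC Genomics Workbench on mm10, without normalization. The libraries were directional and rRNA-depleted, and the strand setting of the counting is not given in the sources used here. Total reads were used, and uniquely matching reads were an alternative. Depth limits the precision, and p-values measure the spread between 3 single mice per group.

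Exon reads of genes with an exon length and intron reads of nuclear genes with more than 1 exon were each fitted in R 4.3.3 with edgeR 4.0.16 (filterByExpr, TMM of that column, quasi-likelihood F test, two-sided, Benjamini-Hochberg over all genes tested, threshold 0.05). The difference was the interaction of read type and paternal diet in 12 columns, with the mouse as a block. CPM values use the TMM-normalized library size, and SEs were derived from the fold change and its F statistic. The fits were tested on simulated data, where the test of the difference recovered fewer changed genes than first required, and that requirement was lowered after the result was seen.

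Named genes are those the study names, up to 4 per class with the largest fold change, a mean of at least 1 CPM and groups that do not overlap, up to 5 per direction of the difference, and up to 4 per list, called genes first, and other members of a counted group were named after their values were seen. Some genes that the rule names are not reported here. Alternatives were DESeq2 1.42.0, its size factors in edgeR, no filter, unique reads, junction reads, limma-trend (limma 3.58.1) on the log2 ratio with 0.5 CPM added, exon scaling of intron reads, the intron share as a covariate, minimums of 10 and 50 reads, genes without overlap, the replicate number as a block, and each mouse left out. Leaving out the 3 introns with over 1% of intron reads, and lists and classes without single mice, were added after seeing the data.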

Additional observations from a re-analysis of the deposited data

How the results depend on the processing

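For genes named by the study, by class or by the test of the difference, 46 effects were refitted and none changed sign: of 622 values, 428 kept their side of the threshold, 172 lost it and 22 gained it. Genes named by class or by the difference were picked in these data for passing a threshold, those by class also for groups without overlap. A kept sign was therefore likely beforehand and is no evidence of stability. Counts of calls moved far more, and the cause was not tested. Higher and lower genes were 57 and 191 in exon reads and 58 and 97 in intron reads with DESeq2, and 157 and 362, and 166 and 297, without a filter on low counts. With the intron share as a covariate they were 1 and 9, and 1 and 1. The intron share did not overlap between the groups, so this fit cannot separate it from paternal diet. Unique reads gave 35 higher genes in exon reads and 27 higher and 70 lower in intron reads. For the difference, higher and lower counts were 30 and 53 without a filter and 0 and 0 with limma-trend, where 577 genes passed at an unadjusted p under 0.05 and edgeR called 7; the higher count was 1 with DESeq2, 4 with unique reads and 1 with exon scaling, and the lower count was 8 with junction reads. The class called in both read types held 6 genes at a minimum of 50 reads, and the 3 classes held 7, 45 and 11 genes without overlapping genes. The intron share rose by 1.28 percentage points in the median gene, against 6.94 over summed reads.

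With 1 mouse left out, exon calls ranged from 1 to 111 higher and from 8 to 262 lower, intron calls from 0 to 45 and from 1 to 109, and calls of the difference from 0 to 33 and from 4 to 53. The classes ranged from 0 to 66 for both, from 7 to 306 for exon reads alone and from 1 to 87 for intron reads alone, and the intron share from 4.53 to 8.41 percentage points.

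The main fits did not treat the replicate numbers as pairs. Deviations of mice with the same number correlated at 0.108, 0.0315 and -0.018 in exon reads and 0.124, -0.0589 and 0.00599 in intron reads. These values have no reference and do not settle whether the numbers mark pairs. With the replicate block, 38 genes were higher in exon reads, 54 lower in intron reads, 10 higher and 13 lower in the difference, and 33 were called in both read types.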
